A study of Mus musculus with 6 samples.

Results

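The genes described here are 9 markers of connective tissue and of the lining of the body cavity, measured in cultures of mouse peritoneal macrophages. They are Col1a1, Col1a2, Col3a1, Dcn and Sparc, which mark collagen-producing fibroblasts, and Msln, Upk3b, Lrrn4 and Krt19, which mark mesothelium. All 9 were found by gene symbol among the 34745 genes of the deposited table. They were chosen with earlier FPKM values of these libraries known, which differed widely between library numbers, so the differences between library numbers are given as a description and without a test. The series holds 6 RNA-seq libraries from peritoneal macrophages of C57BL/6 mice, 3 from cells treated for 24 h with 0.1 mM R-2-HG and 3 from cells treated for 24 h with vehicle. R-2-HG, R-2-hydroxyglutarate, is the metabolite made by mutant isocitrate dehydrogenases. Libraries of both groups carry a number from 1 to 3, and a pair below means the R-2-HG and the vehicle library of one number. The labels do not say what the number marks, nor whether each library is from its own mouse or culture, so the p-values reflect the spread among these 6 libraries and that spread may be technical. The labels used here give no age or sex, nor the way macrophages were separated from other peritoneal cells.

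Type I collagen, the main fibre of connective tissue, is a triple helix of a pair of chains encoded by Col1a1 and a chain encoded by Col1a2, and type III collagen, encoded by Col3a1, assembles with it in soft tissues. Fibroblasts secrete these chains together with proteins that organise the fibres. The peritoneal cavity is lined by mesothelium, a flat epithelium that carries keratins, mesothelin and uroplakin family proteins. Macrophages are not a known major source of fibrillar collagen, and fibroblast and mesothelial genes are read in macrophage preparations as markers of other cells. In RNA from a mixed sample, fewer cells of a type and less RNA per cell cannot be told apart.

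The RefSeq promoter table (GRCm38.p6) held 5 of the 9 genes: Col1a2, Col3a1, Sparc, Upk3b and Lrrn4. The 150 bases before the start of 1 RefSeq transcript of each are shown because 3 of these genes are matrix genes with the same order over the library numbers and 2 are mesothelial genes with much lower values. Common core promoter motifs were searched on both strands and matches are in capitals. The first was CCAAT, to which nuclear factor Y binds. Another was TATAAA, a form of the TATA element at which transcription complexes assemble. The last was GGGCGG, the GC element bound by Sp1 family factors, and no marked motifs overlap. By the GENCODE gene spans given below, the windows of Col1a2 and Sparc lie inside the gene, upstream of a transcript that starts within it, and that of Lrrn4 overlaps the gene's first bases.
Col1a2 (chr6:4505468-4505617, plus strand): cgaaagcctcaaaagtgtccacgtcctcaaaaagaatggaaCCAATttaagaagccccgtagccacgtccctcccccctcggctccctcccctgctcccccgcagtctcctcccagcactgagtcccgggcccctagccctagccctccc
Col3a1 (chr1:45311388-45311537, plus strand): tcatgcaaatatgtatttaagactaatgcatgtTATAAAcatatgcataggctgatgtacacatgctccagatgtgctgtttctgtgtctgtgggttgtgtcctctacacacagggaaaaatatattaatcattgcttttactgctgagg
Sparc (chr11:55420081-55420230, minus strand): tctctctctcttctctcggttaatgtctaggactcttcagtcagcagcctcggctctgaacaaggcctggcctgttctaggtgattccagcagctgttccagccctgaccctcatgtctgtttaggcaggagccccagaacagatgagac
Upk3b (chr5:136038346-136038495, plus strand): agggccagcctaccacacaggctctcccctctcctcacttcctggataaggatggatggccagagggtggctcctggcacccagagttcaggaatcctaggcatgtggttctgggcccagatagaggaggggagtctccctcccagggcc
Lrrn4 (chr2:132880863-132881012, minus strand): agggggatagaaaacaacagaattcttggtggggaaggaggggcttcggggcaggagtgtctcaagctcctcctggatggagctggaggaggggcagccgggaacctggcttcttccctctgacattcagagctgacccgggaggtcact
Among these windows only that of Col1a2 held CCAAT, 109 to 105 bases before the start, and only that of Col3a1 held TATAAA, 117 to 112 bases before it. These are matches of sequence alone, and whether they work as promoter elements at these positions was not tested. Of all 32851 promoter windows of that length in the table, 24.5% held CCAAT, 7.57% the TATA element and 28.6% the GC element, which none of the 5 held. The Col3a1 window was 37.3% G and C, against 62.7% for Col1a2, 54.0% for Sparc, 62.0% for Upk3b and 59.3% for Lrrn4, and the median over all windows was 54.0%. No motif was held by more than 1 of the 5 windows, matrix genes included.

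Values are FPKM, fragments scaled to transcript length and to mapped fragments, and no counts came with them. Depth, read from the steps between low values, was estimated at 13680000 to 16620000 fragments per library, and 1 fragment of a 2 kb transcript was worth 0.0301 to 0.0366 FPKM. The 9 genes together made up 0.0346%, 0.00587% and 0.00225% of the summed FPKM in R-2-HG libraries 1 to 3, against 0.0383%, 0.0112% and 0.0020% in vehicle. The 5 matrix genes averaged 1 FPKM or more across the libraries and were among the 9701 genes tested. In the libraries numbered 3 alone, 3 of them (Sparc, Dcn and Col1a1) averaged at least 1 FPKM, and Col1a2 and Col3a1 did not. The 4 mesothelial genes lay below the filter.

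All 5 matrix genes were highest in both libraries numbered 1, intermediate in both numbered 2 and lowest in both numbered 3. Within each group the level in number 1 was 6.54 to 51.4 times that in number 3 with R-2-HG and 13.6 to 41.5 times with vehicle. That order in both groups was found in 6.08% of all genes tested, and a difference of at least 1 between numbers 1 and 3 on the log2(FPKM + 1) scale in both groups, also met by all 5, in 1.16%. The opposite difference of that size was found in 0.216% of genes. Both libraries of number 1 were above the other 4 in 11.5% of genes, and in all 5 matrix genes, Upk3b and Lrrn4. Since the genes were chosen for this pattern, nothing is read from these counts.

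Col1a1, on chromosome 11 (94936224 to 94953042, GRCm38), had 29.7, 5.35 and 0.965 FPKM in R-2-HG cells (libraries 1 to 3) and 31.3, 10.9 and 1.46 FPKM in vehicle cells. Both groups covered nearly the same range, and each step between numbers was a larger fold than any difference within a pair. Col1a2, its partner chain on chromosome 6 (4504814 to 4541544), had 14.6, 2.22 and 0.733 FPKM in R-2-HG cells and 15.4, 5.06 and 0.479 FPKM in vehicle cells. The ratio of Col1a1 to Col1a2 was 2.03, 2.41 and 1.32 in R-2-HG libraries 1 to 3 and 2.04, 2.16 and 3.04 in vehicle, so it was nearest between groups in pair 1, where both genes were highest, and farthest apart in pair 3. FPKM is per length, so this compares levels of the messages.

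Col3a1, the type III chain on chromosome 1 (45311538 to 45349706), had 12.7, 1.14 and 0.248 FPKM in R-2-HG cells and 19.5, 2.31 and 0.471 FPKM in vehicle cells. Its largest step was between numbers 1 and 2, 11.1-fold with R-2-HG and 8.45-fold with vehicle, against 5.54-fold and 2.87-fold for Col1a1. Exons of Col3a1 overlap the microRNA model Gm47302 on the same strand, so reads there cannot be assigned to one of them.

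Dcn encodes decorin, a small proteoglycan that binds collagen fibrils, and lies on chromosome 10 (97479609 to 97518143). It had 12.2, 2.42 and 1.87 FPKM in R-2-HG cells and 14.9, 3.59 and 1.10 FPKM in vehicle cells. With R-2-HG its levels in numbers 2 and 3 were close, a 1.30-fold step, where Col1a1 had a 5.55-fold step. Sparc encodes a secreted glycoprotein that binds collagen and calcium, and lies on chromosome 11 (55394500 to 55423183). It had 31.7, 4.66 and 2.56 FPKM in R-2-HG cells and 33.0, 9.38 and 1.76 FPKM in vehicle cells, the highest mean of the 9 genes (13.8 FPKM over 6 libraries).

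**Figure D1:**
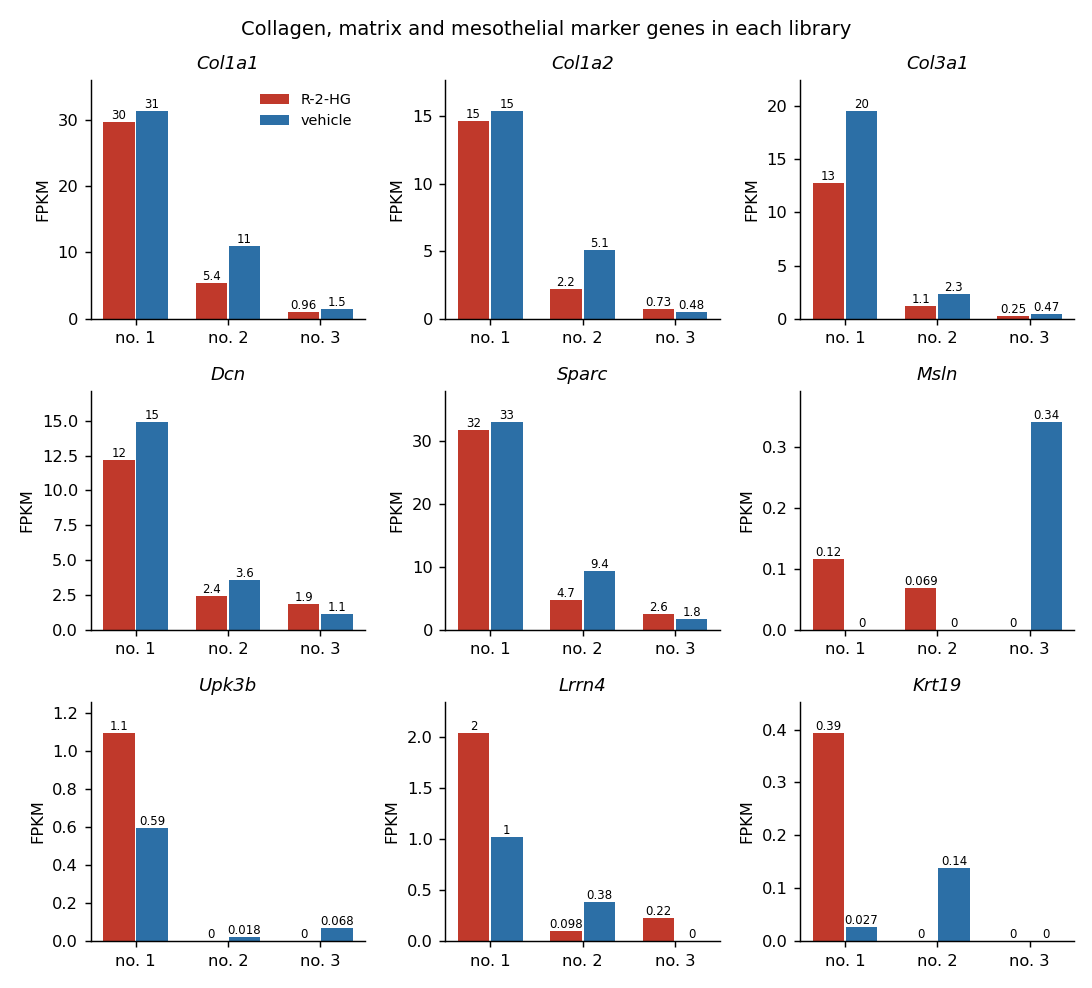
Level of each of the 9 genes in FPKM (linear axes from 0, 1 axis per gene) in every library, with R-2-HG in red left of vehicle in blue and the library number on the x axis; each bar is 1 library, so there is no error bar. Col1a1, Col1a2, Col3a1, Dcn and Sparc stand highest in number 1 and lowest in number 3 in both groups, and the 4 mesothelial genes are at most 2.04 FPKM.

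The mesothelial genes were low, at most 2.04 FPKM, and shared the order only in part. Lrrn4, a leucine-rich repeat membrane protein gene on chromosome 2 (132868305 to 132880891), had 2.04, 0.0984 and 0.221 FPKM in R-2-HG cells and 1.02, 0.382 and 0 FPKM in vehicle cells. Upk3b, a uroplakin gene on chromosome 5 (136038496 to 136046487), had 1.09, 0 and 0 FPKM in R-2-HG cells and 0.592, 0.0183 and 0.0682 FPKM in vehicle cells. Both were highest in the libraries numbered 1, but neither had the order of the matrix genes in both groups.

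Each of these genes has a single annotated transcript, and each of its FPKM values came within 0.1 of a whole number of fragments. Lrrn4 corresponded to 124, 5 and 12 fragments in R-2-HG cells and 60, 22 and 0 in vehicle cells, with exact Poisson 95% intervals of 103 to 148 and 45.8 to 77.2 fragments for the 2 libraries numbered 1. Upk3b corresponded to 63, 0 and 0 fragments in R-2-HG cells and 33, 1 and 4 in vehicle cells, with intervals of 48.4 to 80.6 and 22.7 to 46.3 fragments in number 1. In pair 1 the intervals of R-2-HG and vehicle do not overlap for either gene. They cover counting error only and compare single libraries. For values of 0, the limit of 3 fragments lies at 0.0486 FPKM for Lrrn4 in vehicle library 3 and at 0.0621 and 0.0580 FPKM for Upk3b in R-2-HG libraries 2 and 3.

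Krt19, a keratin gene of simple epithelia on chromosome 11 (100140810 to 100148665), had 0.393, 0 and 0 FPKM in R-2-HG cells and 0.0271, 0.138 and 0 FPKM in vehicle cells. Msln, which encodes mesothelin and lies on chromosome 17 (25748613 to 25754378), had 0.116, 0.0691 and 0 FPKM in R-2-HG cells and 0, 0 and 0.342 FPKM in vehicle cells. Krt19 was highest in number 1 with R-2-HG and in number 2 with vehicle. Msln was highest in number 3 with vehicle, so it did not share the pattern of the matrix genes. With a defining marker of mesothelium near 0 in all libraries, the mesothelial label rests here on Lrrn4 and Upk3b.

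The R-2-HG and vehicle groups were not told apart at any gene. In limma on log2(FPKM + 1), 0% of the 9701 genes had an adjusted p under 0.05 in either direction, 140 had an unadjusted p under 0.05, and none of these 140 was among the 5 matrix genes. For all 5 the R-2-HG mean was the lower, with a median log2 change of -0.25 beside -0.0044 over all genes tested, where 51.6% of genes had a change below 0. The groups overlapped for all 9 genes, while 2.66% of genes tested had all R-2-HG libraries below all vehicle libraries and 2.03% the reverse. Col1a1 averaged 12 ± 15.5 FPKM in R-2-HG cells and 14.6 ± 15.3 FPKM in vehicle cells (SD, n = 3 each), a log2 change of -0.43 (SE 1.22, limma adjusted p = 0.999981). Its 95% interval ran from -3.34 to 2.47, so with the spread over library numbers left in, a difference of several fold in either direction would not have been detectable.

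In fits without the library number, the direction of these changes depended on which library was left out. Leaving out 1 library of number 1 or 3 unbalances the numbers, over which these genes differed widely. The sign then follows the library left out, so these sign changes are not read as a result on R-2-HG. On the log2(FPKM + 1) scale the changes of all 5 matrix genes were above 0 without R-2-HG library 3 (0.23 to 0.51) and without vehicle library 1 (0.43 to 0.71). Without R-2-HG library 1 the changes were -0.77 to -1.51. None of the 5 passed in any of these fits.

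Within pairs the matrix genes were lower with R-2-HG in all 5 cases in pair 1 and in pair 2, and in 2 of 5 in pair 3. In pair 1 the levels were near each other, at 0.65 (Col3a1) to 0.96 (Sparc) times the vehicle level. In pair 2 they were 0.44 (Col1a2) to 0.67 (Dcn) times the vehicle level, and 4 of the 5 were lower by at least 0.5 on the log2(FPKM + 1) scale, as were 2.63% of all genes tested. In pair 3 they ran from 0.53 (Col3a1) to 1.70 times (Dcn). Col1a1 and Col3a1 were lower with R-2-HG in all 3 pairs, as were 11.8% of all genes tested, and none of the 9 was higher in all 3 pairs, as 11.7% were.

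With the library number as a block in the fit, the log2 change of Col1a1 was -0.43 (SE 0.17, 95% interval -0.86 to -0.01, unadjusted p = 0.0469) and that of Col3a1 -0.48 (SE 0.13, -0.81 to -0.15, unadjusted p = 0.0119). Neither passed over all genes (limma adjusted p = 0.991 for both), and 329 genes had an unadjusted p under 0.05. Col1a2 stood at -0.25 ± 0.23, Dcn at -0.08 ± 0.19 and Sparc at -0.19 ± 0.23 (log2 change ± SE), with intervals that include 0. The SE of Col1a1 was 0.17 with the block and 1.22 without it. That fall supports nothing, as the genes were chosen for differences between library numbers, which the block takes out. The blocked intervals and unadjusted p-values are given under the same limit. Among related genes tested, the change on the log2(FPKM + 1) scale was below 0 with R-2-HG for all 6 other collagen chains (median -0.18) and for 4 of 5 contractile genes (median -0.04), and none passed with or without the block. Means of FPKM itself, which weight the libraries numbered 1 more, were higher with R-2-HG for Col4a1 (2.92 FPKM, against 2.79 with vehicle), Acta2 (21.9 against 19.2), Tagln (13.4 against 10.8) and Des (1.41 against 1.18).

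The mesothelial genes differed the other way in pair 1. All 4 were higher with R-2-HG there, by 0.16 (Msln) to 0.59 (Lrrn4) on the log2(FPKM + 1) scale, and 3 of 4 were lower with R-2-HG in pair 2. The median over all genes tested was -0.014 in pair 1. Msln (0.116 FPKM with R-2-HG, 0 with vehicle) and Krt19 (0.393 against 0.0271) were near the floor in pair 1, so little is read from their direction. Lrrn4 alone of the 9 genes was higher by at least 0.5 in pair 1, as were 1.68% of genes tested. In a fit with no filter on low values, over 17294 genes, none of the 4 passed (limma adjusted p = 0.9997), with log2 changes of 0.18 ± 0.45 for Lrrn4, 0.09 ± 0.33 for Upk3b, 0.08 ± 0.14 for Krt19 and -0.06 ± 0.12 for Msln (± SE).

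**Figure D2:**
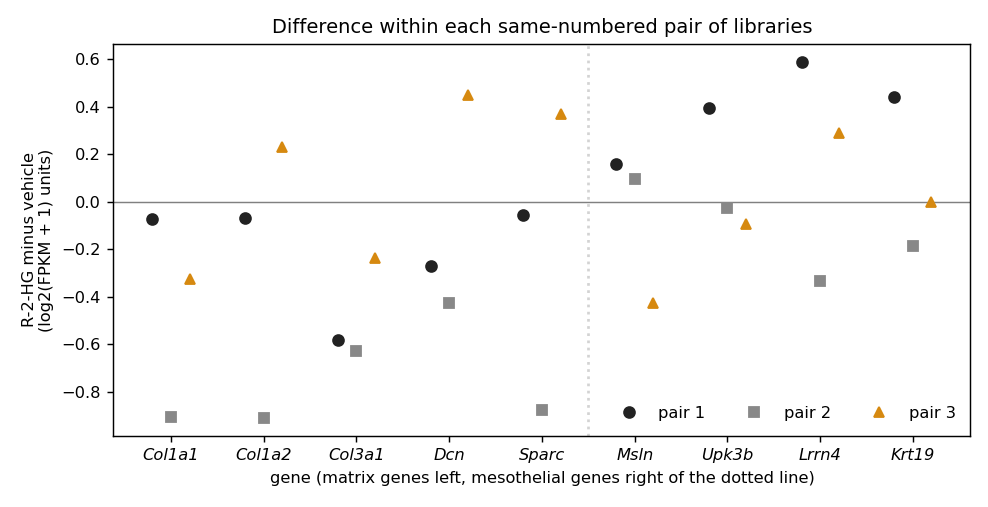
Difference between R-2-HG and vehicle within each same-numbered pair of libraries, in log2(FPKM + 1) units, for the 5 matrix genes and the 4 mesothelial genes; each symbol is 1 pair and the line at 0 means equal levels. Pair 2 lies below 0 for all 5 matrix genes, pair 1 lies above 0 for all 4 mesothelial genes, and pair 3 falls on both sides.

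Other genes of the same tissue were read from lists of related genes, in a limma fit of libraries numbered 1 against libraries numbered 3 with the group as a covariate. In that fit 2.07% of the 9701 genes (201) were higher and 1.04% (101) lower in number 1 at an adjusted p under 0.05. Each number has 2 libraries, 1 of each group, and this contrast was chosen with the pattern of Col1a1 known. The 5 matrix genes differed by 2.56 (Dcn) to 3.84 (Col1a1) on the log2(FPKM + 1) scale, with a median of 3.41, beside a median of -0.0077 over all genes. The filter bears on this contrast: a gene near 0 in number 3 that averaged 1 FPKM through number 1 had to be higher there. The counts and medians of such lists are therefore a description and support nothing. The same holds for the differences and adjusted p-values printed below for single genes of that kind.

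Of 15 other collagen chains 6 were tested, and all 6 were higher in number 1. All 6 averaged under 1 FPKM in the libraries numbered 3, and 1 of 6 averaged at least 1 FPKM over numbers 2 and 3, so the filter itself favoured this direction. Their adjusted p-values lend it no support. Over all 15, tested or not, 11 were in the order of the matrix genes in both groups. Col6a1, a chain of the beaded filament collagen VI, had 7.68, 0.968 and 0.256 FPKM in R-2-HG cells and 12.3, 2.04 and 0.306 FPKM in vehicle cells (log2 difference of number 1 minus number 3 of 3.07, SE 0.20, limma adjusted p = 0.00436). Col4a1, a basement membrane chain, had 6.85, 1.22 and 0.668 FPKM in R-2-HG cells and 5.56, 2.42 and 0.410 FPKM in vehicle cells (2.23, adjusted p = 0.0156). Col5a2, a chain of the collagen that is built into type I fibrils, had 6.45, 1.01 and 0.324 FPKM in R-2-HG cells and 5.93, 2.23 and 0.185 FPKM in vehicle cells (2.52, adjusted p = 0.0110). The 6 calls became 2 without R-2-HG library 1, 1 without vehicle library 1 and 0 with no filter on low values.

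Enzymes and chaperones of collagen making split. Of 17 listed 10 were tested, 8 were higher in number 1 and 5 of these passed, and the list median was 0.81. Of these 10, 4 averaged under 1 FPKM in the libraries numbered 3 (Fkbp10, Bmp1, Lox and Loxl2). Serpinh1, the collagen chaperone HSP47, had 27.0, 4.45 and 4.18 FPKM in R-2-HG cells and 26.7, 9.88 and 1.68 FPKM in vehicle cells (2.90, SE 0.42, adjusted p = 0.0299). The others that passed were Fkbp10, a prolyl isomerase of the endoplasmic reticulum, Bmp1, which trims procollagen, and the cross-linking oxidases Lox and Loxl2. The 3 most abundant members did not pass. P4hb, which also works as a general disulfide isomerase, had 155, 142 and 158 FPKM in R-2-HG cells and 166, 151 and 148 FPKM in vehicle cells (0.07, adjusted p = 0.699). Crtap and Plod1 stood at -0.27 (adjusted p = 0.276) and -0.03 (adjusted p = 0.921). The 5 calls became 0 without R-2-HG library 1, without vehicle library 1 and with no filter.

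Among 26 small proteoglycans and fibre-associated proteins 8 were tested, and all 8 were higher in number 1 (list median 1.54). Of these, 4 passed, and 6 of the 8 averaged under 1 FPKM in number 3. Bgn, which encodes biglycan, had 6.09, 1.13 and 0.353 FPKM in R-2-HG cells and 6.61, 1.77 and 0.299 FPKM in vehicle cells (2.47, adjusted p = 0.00529). Fbln2, which encodes fibulin 2, stood at 2.31 (adjusted p = 0.00617), and Emilin1 at 0.61 (adjusted p = 0.0650). Of 16 other fibroblast markers 3 were tested and all 3 were higher in number 1. The 2 that passed averaged under 1 FPKM in number 3. Pdgfra, the platelet-derived growth factor receptor alpha of fibroblasts, had 1.61, 0.606 and 0.0821 FPKM in R-2-HG cells and 2.77, 0.901 and 0.0844 FPKM in vehicle cells (1.54, adjusted p = 0.0202). Gas1, which encodes a membrane protein of growth-arrested fibroblasts, stood at 1.83 (adjusted p = 0.00909), and Gsn, an actin-severing protein also made by macrophages, at 0.29 (adjusted p = 0.126). Without R-2-HG library 1, vehicle library 1 or the filter, the 4 calls among proteoglycan and fibre-associated genes became 0, 1 and 0. The 2 among fibroblast markers became 0 each time. Without R-2-HG library 3 the count among proteoglycan and fibre-associated genes was 6.

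Genes of the contractile apparatus of smooth muscle and myofibroblasts also had their highest levels in number 1. Of 10 listed 5 were tested and all 5 were higher in number 1, with a median of 2.03. Of these, 3 (Des, Myl9 and Tpm2) averaged under 1 FPKM in number 3 and passed the filter through number 1, while Acta2 and Tagln averaged at least 1 FPKM in number 3 as well. Acta2, smooth muscle actin, had 56.5, 8.003 and 1.03 FPKM in R-2-HG cells and 37.6, 18.6 and 1.32 FPKM in vehicle cells (4.44, SE 0.37, adjusted p = 0.00863). Tagln, which encodes the actin-binding protein transgelin, had 34.6, 3.18 and 2.24 FPKM in R-2-HG cells and 22.5, 8.79 and 1.10 FPKM in vehicle cells (3.47, adjusted p = 0.0240). Des, which encodes the intermediate filament protein desmin, had 3.54, 0.688 and 0 FPKM in R-2-HG cells and 2.69, 0.844 and 0 FPKM in vehicle cells (2.03, adjusted p = 0.00894). In pair 1 all 5 were higher with R-2-HG, while Col1a1, Col1a2, Col3a1, Dcn and Sparc were lower there, and in pair 2 both sets were lower with R-2-HG. The ratio of Acta2 to Col1a1 was 1.90, 1.49 and 1.07 in R-2-HG cells and 1.20, 1.71 and 0.904 in vehicle cells. The 5 calls became 1 without R-2-HG library 1, 1 without vehicle library 1, 2 without R-2-HG library 3, 2 without vehicle library 3 and 0 with no filter.

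The other mesothelial markers were mixed. Of 19 listed 6 were tested, 3 were higher in number 1 and 1 of these passed. That gene was Aldh1a2, a retinoic acid synthesis enzyme (1.14, adjusted p = 0.0203). It had 5.51, 2.62 and 2.02 FPKM in R-2-HG cells and 5.76, 2.31 and 2.02 FPKM in vehicle cells. The call was lost without either library numbered 1 and with no filter. The 3 most abundant did not pass: Pdpn stood at -0.17 (adjusted p = 0.335), Ezr at 0.23 (adjusted p = 0.369) and Slpi at 0.46 (adjusted p = 0.221). These 3 are also expressed by macrophages. Below the filter Upk1b, a uroplakin, had 2.59, 0.165 and 0 FPKM in R-2-HG cells and 0.966, 0.985 and 0.0340 FPKM in vehicle cells. Wt1, a transcription factor of mesothelium, was low but in the order of the matrix genes. It had 0.339, 0.181 and 0.108 FPKM in R-2-HG cells and 0.320, 0.211 and 0 FPKM in vehicle cells. Krt8, a keratin of simple epithelia, had 1.36, 0.243 and 0 FPKM in R-2-HG cells and 1.33, 0.286 and 0 FPKM in vehicle cells, in the order of the matrix genes. Over all 19, tested or not, 9 had both libraries numbered 1 above the other 4 and 5 were in the full order in both groups. Muc16 was listed at 0 in all 6 libraries.

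**Figure D3:**
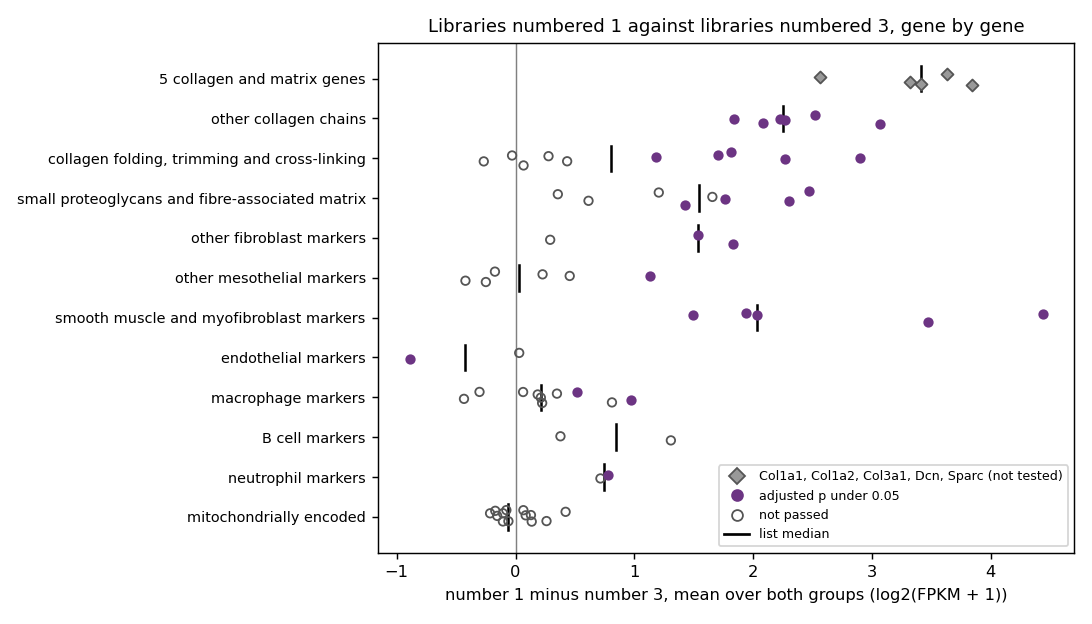
Difference of libraries numbered 1 minus libraries numbered 3 on the log2(FPKM + 1) scale (x axis) for each tested gene of each list (rows), with the list median as a black bar; filled circles passed at an adjusted p under 0.05 (limma, all 6 libraries), open circles did not, and grey diamonds are the 5 matrix genes, which were chosen on this contrast. All 6 other collagen chains and all 5 contractile genes lie to the right of 1, and mitochondrially encoded genes lie around 0. The 6 chains and 3 of the 5 contractile genes averaged under 1 FPKM in number 3, so the filter favoured that side for them. All 13 mitochondrially encoded genes averaged at least 1 FPKM there, so the lists are not compared on equal terms.

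The profile most like the mean of the 5 matrix genes was sought over the 9694 other gene symbols tested (1 model per symbol), as the root mean square difference between centred log2(FPKM + 1) values over the 6 libraries. The 10 nearest were Col6a1 (0.20), Tagln (0.32), Serpinh1 (0.32), Cryab (0.35), Col5a2 (0.36), Timp3 (0.37), Bgn (0.38), Fscn1 (0.39), Cfb (0.41) and Ctgf (0.42), where the median gene was at 1.41. The matrix genes themselves were at 0.10 (Sparc) to 0.36 (Dcn). Of the 10, 5 are on the lists above, and the 8 matrix, fibroblast, contractile and mesothelial lists hold 0.443% of genes tested. That share includes the 5 matrix genes, which the search left out. The remaining 5 are Cryab, a small heat shock protein, Timp3, a matrix-bound protease inhibitor, Fscn1, an actin-bundling protein, Cfb, complement factor B, and Ctgf, a matricellular growth factor. Cfb was the most abundant of these, at 30.8, 14.7 and 3.66 FPKM in R-2-HG cells and 49.5, 14.99 and 4.72 FPKM in vehicle cells. The search started from genes chosen for this pattern. Col6a1, Cryab, Col5a2, Timp3, Bgn, Fscn1 and Ctgf were under 1 FPKM in both libraries numbered 3, so the filter favoured this direction for them. The ranking and the count of listed genes are therefore a description and support nothing.

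Markers of other cells were compared over the same libraries. The 11 macrophage markers summed to 25698, 21019 and 18881 FPKM in R-2-HG cells and 22939, 21070 and 20357 FPKM in vehicle cells, a 1.36-fold and a 1.13-fold difference between numbers 1 and 3, mostly from Lyz2. Of the 10 tested, 8 were higher in number 1, and Adgre1 and Gata6 passed (0.52 and 0.97, adjusted p = 0.0286 and 0.0397). Gata6 averaged under 1 FPKM in number 3. The 2 calls became 0 without any one of the 4 libraries numbered 1 and 2 and with no filter. They became 1 with a pseudocount of 0.1 and 3 without vehicle library 3. Cd68 stood at -0.30 (adjusted p = 0.127). Lyz2, Adgre1, Fcgr1 and Gata6, 4 of the 10 tested, had the order of the matrix genes in both groups, as did 6.08% of all genes tested. The 8 T and NK cell markers were all under 1 FPKM and summed to 1.85, 0.792 and 0.427 FPKM in R-2-HG cells and 4.26, 0.898 and 0.719 FPKM in vehicle cells, so they too were highest in number 1. The 6 neutrophil markers summed to 46.9, 29.8 and 30.3 FPKM in R-2-HG cells and 54.7, 39.5 and 28.7 FPKM in vehicle cells. Mmp8 passed there (0.78, adjusted p = 0.0438) and S100a8 did not (0.72, adjusted p = 0.136). The call was lost without any one of the libraries numbered 1 and 2 and with no filter.

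The sum of endothelial markers went the other way through Vwf, with 7.65, 11.2 and 11.5 FPKM over 10 genes in R-2-HG cells and 7.96, 11.5 and 15.2 FPKM in vehicle cells. Vwf had 5.72, 9.05 and 10.1 FPKM in R-2-HG cells and 5.84, 9.23 and 13.1 FPKM in vehicle cells. It was lower in number 1 (-0.89, adjusted p = 0.0320, lost without any one of the libraries numbered 1 and 2 and with no filter). Kdr, the other marker tested, stood at 0.03 (adjusted p = 0.938), so the direction is that of Vwf and not of the list. Cldn5 and Emcn were listed at 0 in all libraries. The 13 mitochondrially encoded genes summed to 23370, 18917 and 24090 FPKM in R-2-HG cells and 23107, 22289 and 19080 FPKM in vehicle cells, with no order over the numbers shared by the groups and 0 called (1 without R-2-HG library 3 or vehicle library 3). The part of other cell types in the differences between numbers was not tested.

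**Figure D4:**
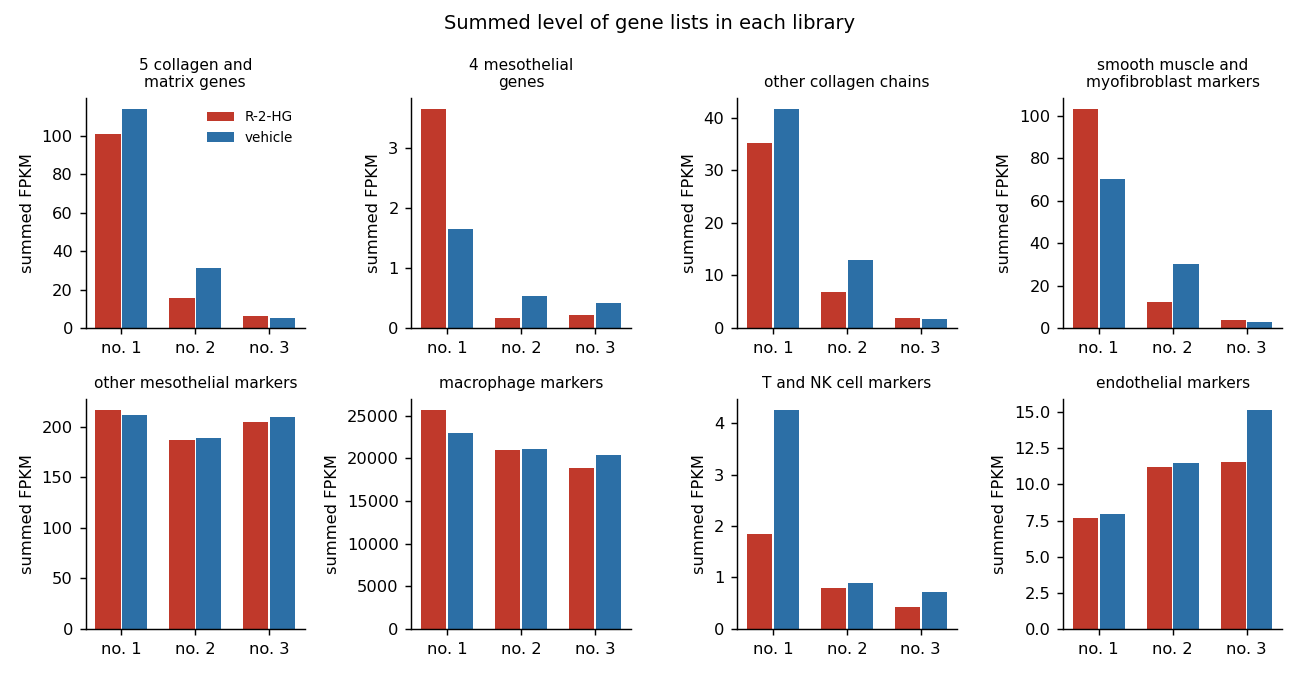
Summed FPKM of 8 gene lists in each library (linear axes from 0, 1 axis per list), with R-2-HG in red left of vehicle in blue and the library number on the x axis; each bar is 1 library. The 5 matrix genes sum to 101 FPKM in R-2-HG library 1 and 114 FPKM in vehicle library 1 and to 6.38 and 5.26 FPKM in number 3. The sum of macrophage markers, mostly Lyz2, lies between 18881 and 25698 FPKM and does not show the other markers of that list.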

How the data were processed

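RNA-seq of 3 R-2-HG and 3 vehicle libraries was used. The authors deposited 1 table of 34745 genes with a column per library. Its header gives no unit, and the values were taken as FPKM because they come in steps that shrink with transcript length and because Cuffdiff, which writes FPKM, is named in the submitters' processing notes, with Bowtie 0.12.2 and the builds mm8 and mm10, but no role or order. No source used here states the annotation or strand. FPKM keeps no counts, so count tests were not used.

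Columns were matched to libraries by title, none was left over, and no libraries held identical values. A spreadsheet had turned 27 symbols into dates, which were restored from gene identifiers. Locations came from GENCODE M21 (GRCm38). Where a symbol had several models, the one with the highest mean stood for it in lists. Depth was the number of fragments that best made FPKM times length whole in low values of 7092 single-transcript genes over 1000 bp, and 95.2% to 96.6% of them lay within 0.1 of a whole number.

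The 9701 genes that averaged 1 FPKM or more were tested on log2(FPKM + 1), which understates changes of low genes, with limma 3.58.1 in R 4.3.3 (trend and robust), in both directions, and p-values adjusted by Benjamini and Hochberg passed under 0.05. With 3 libraries a group, the smallest exact permutation p is 0.1. The model was tested on simulated data. Python 3.11.15, pandas 2.3.3, numpy 2.4.6 and matplotlib 3.10.9 were used. The genes named are the 9 described, the 10 nearest profiles and, of each list, up to 3 with the highest mean. Others were chosen after their values were seen. The genes and lists were chosen with earlier results of these data known.

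The numbers pair the libraries by the data and not by the labels: across genes, the deviations of libraries 1, 2 and 3 from their group mean had correlations of 0.54, 0.37 and 0.36 with those of the same number, and of -0.47 to 0.046 with other numbers. As deviations within a group sum to 0, some negative correlation is forced.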

Additional observations from a re-analysis of the deposited data

How the results depend on the processing

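None of the 5 matrix genes passed between R-2-HG and vehicle under any of the 14 alternatives (smallest adjusted p = 0.399), and with the replicate block the count over all genes stayed at 0 and no call changed. Of 70 changes of single genes, 16 turned sign. Leaving out 1 library at a time, with no block and so with unbalanced numbers, gave log2 changes of -1.47 to 0.51 for Col1a1, -1.17 to 0.57 for Col1a2, -1.51 to 0.59 for Col3a1, -0.77 to 0.71 for Dcn and -1.14 to 0.70 for Sparc. In the blocked fit without pair 1, Dcn stood at 0.013, and without pair 2, Col1a2 stood at 0.0799, Dcn at 0.0913 and Sparc at 0.157. Col1a1 and Col3a1 were lower with R-2-HG in all 3 pairs, so no blocked fit without a pair could turn their sign. Without pairs 1, 2 and 3 in turn, Col1a1 stood at -0.61, -0.20 and -0.49 and Col3a1 at -0.43, -0.41 and -0.60. Over all genes 0 to 1 was called without 1 library, 1 in the blocked fit without pair 1, and 4 without pair 3. The median difference between numbers 1 and 3 was 4.44 with a pseudocount of 0.1, 4.04 with each library rescaled to a common total and 2.56 over all 9 genes with no filter, against 3.41. The count of genes called between numbers 1 and 3, 302, was 14 with no filter and 24 to 821 without 1 library, lowest without R-2-HG library 1 (24) and vehicle library 1 (29) and highest without vehicle library 3 (821); the cause was not tested. The number of the 9 genes with the order over numbers was 5 after rescaling and with no filter. Lrrn4 and Upk3b rest on few fragments outside the libraries numbered 1.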

Other observations

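Markers of 4 further cell types were read. The 7 B cell markers, mostly Igkc and Ighm, summed to 55.2, 38.4 and 61.3 FPKM in R-2-HG libraries 1 to 3 and to 129, 67.0 and 55.0 FPKM in vehicle, highest in vehicle library 1 and above the sum of the 9 collagen, fibroblast and mesothelial genes in every library but R-2-HG library 1, and neither Igkc nor Ighm passed between numbers 1 and 3 (adjusted p = 0.496 and 0.298, limma), though 1 of them did without R-2-HG library 1 or 3. The 6 mast cell markers summed to 0.533, 2.27 and 0.00527 FPKM in R-2-HG cells and 1.16, 1.52 and 1.55 FPKM in vehicle cells, and Cpa3, a mast cell carboxypeptidase, had 0, 0.723 and 0 FPKM in R-2-HG cells against 0.459, 0.128 and 0.198 FPKM in vehicle cells. The 8 epithelial markers summed to at most 0.775 FPKM and the 7 adipocyte markers to at most 0.209 FPKM in any library. Of the adipocyte markers 4 were listed at 0 in all 6 libraries.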
